A study of Arabidopsis thaliana with 36 samples.

Results

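The genes described here are those of the chloroplast genome of Arabidopsis thaliana, taken as every row of the deposited expression table whose identifier begins with ATCG and which was above 0 in at least 1 library. Of 133 such rows in a table of 37336 genes, 113 met this rule. Leaves of 2 natural accessions, WS and Col-0, were sampled at 6 times (0, 15, 30, 60, 120, 240 min) after plants grown at a PFD (photon flux density) of 120 μmol per square metre and second in a 12 h photoperiod were moved to 500 μmol per square metre and second, the 0 min leaf being taken in the lower light. Each accession was represented by 3 plants, and 1 leaf per plant was taken at each time. The replicate number was taken to name the plant, which the labels do not state. The 12 groups of accession and time hold 3 libraries each, 36 in all. The labels name no transgene or mutation for either accession. No library was made from leaves kept in the lower light after 0 min. In these libraries the higher light, the time of day, the move and the repeated removal of leaves therefore cannot be told apart.

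The chloroplast genome encodes core subunits of both photosystems, the cytochrome b6f complex, the ATP synthase, the NADH dehydrogenase-like complex, the large subunit of Rubisco, and part of the machinery that transcribes and translates them. The remaining subunits of these complexes are nuclear. Most photosynthesis genes are read by a bacterial-type polymerase, PEP, whose core is plastid-encoded and whose sigma factors, which recognise promoters, are nuclear. A phage-type polymerase made from nuclear genes reads others, among them rpoB, which encodes a subunit of PEP itself. Many chloroplast genes lie in polycistronic units that are cut into smaller RNAs. In chloroplasts a poly(A) tail marks RNA for decay and few RNAs carry one at any moment, whereas the libraries here were made by poly(A) selection. The values below are therefore of chloroplast RNA as captured in such libraries, and their relation to total chloroplast RNA was not tested.

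Identifiers were given gene names by matching the exon length implied by their values to chloroplast genes of the RefSeq annotation (build TAIR10.1). A unique length named 57 rows, none of them out of genome order, and 13 more were named from a shared length between matched neighbours. A class alone could be given to 23 rows, of transfer or ribosomal RNA, and neither name nor class to 20. Transfer RNA rows are called by identifier here. Among the genes that could not be matched to a row were matK, rpoC2, ycf1, ycf2, ndhB, ndhD, rps7, rps12, rpl2 and rpl23. They have no values under these names, and their rows may be among those left unnamed.

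The results turn on psbA, psbD, atpB, atpE and rpoB. The RefSeq chloroplast sequence is shown for psbA, whose upstream letters set it apart from the other genes, and for atpB and atpE, whose overlap bears on how their reads were counted. psbA (chloroplast:383-1444, minus strand) encodes the D1 protein of photosystem II, the subunit that is damaged and replaced fastest in light. Its upstream sequence (chloroplast:1530-1559, minus strand, first base 115 bases before the coding start) holds the bacterial-type promoter letters TTGACA and TATANT, capitals below, 18 bases apart. 
psbA upstream: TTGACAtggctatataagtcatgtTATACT
The pair of motifs, searched on the coding strand with 16 to 18 bases between them, was present in 1 of 67 windows of 250 bases before chloroplast coding starts (1.5%), that of psbA. TTGACA alone was present in 6 (9.0%). A match of letters is a description of the sequence and not evidence of use. atpB (chloroplast:52660-54156, minus strand) encodes the β subunit of the ATP synthase and atpE (chloroplast:52265-52663, minus strand) its ε subunit. Their coding sequences overlap by 4 bases (chloroplast:52660-52663), capitals below, at the end of atpB and the start of atpE. 
atpB and atpE (chloroplast:52647-52676, minus strand): gtaaattgaagaaATGAccttaaatctttg
psbD (chloroplast:32711-33772, plus strand), for the D2 protein of photosystem II, overlaps psbC (chloroplast:33720-35141, plus strand), for the CP43 antenna protein, by 53 bases. How reads within such overlaps were assigned is not stated, so the values of overlapping neighbours are not fully separate.

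Of the 113 genes, 72 exceeded 7 RPKM (reads per kilobase of exon, scaled to the mapped reads of the library) in at least 1 of 36 libraries and were tested. The other 41 stayed below it, the highest reading among them being 6.92 RPKM for rps18 (ATCG00650), while the lowest maximum among those tested was 8.01 RPKM for ATCG00065. All 15 genes of photosystem II, 5 of photosystem I, 6 of cytochrome b6f, 6 of the ATP synthase and rbcL passed. Of the NADH dehydrogenase-like complex 7 of 9 genes passed, of large-subunit ribosomal proteins 6 of 7, of small-subunit ribosomal proteins 4 of 10, of transfer RNAs 12 of 19, and of the RNA polymerase 1 of 3. These counts cover only rows that were given a class. Of the 20 rows with neither name nor class, 6 passed. The rows given to ribosomal RNA did not reach more than 2.11 RPKM and 0 of 7 passed. ndhF averaged 2.00 RPKM, rpoC1 3.56 RPKM and accD, for a subunit of acetyl-CoA carboxylase, 1.70 RPKM, all under the limit.

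No row placed by its order in the inverted repeat was tested. The Arabidopsis chloroplast genome of 154478 bases carries this sequence of 26264 bases in 2 copies (chloroplast:84171-110434 and chloroplast:128215-154478), and it holds the ribosomal RNA genes. Of 38 rows that fell in it, 18 were above 0 and the highest reading was 2.11 RPKM, for ATCG01210. Of 95 rows outside it, 72 passed 7 RPKM. How the aligner and the counting treated reads with 2 equal positions was not tested.

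Per kilobase, psbA was the most abundant chloroplast transcript, at a mean of 327.5 RPKM over 36 libraries (142.16 to 700.1 RPKM), or 15.3% of the summed mean RPKM of the 113 genes. rbcL (chloroplast:54958-56397, plus strand), for the catalytic subunit of Rubisco, followed at 167.9 RPKM (60.03 to 310.05 RPKM), or 7.8%. Next came 2 genes of small photosystem II subunits, psbJ at 116.4 RPKM and psbT at 115.1 RPKM, which are only 123 and 102 bases long and rested on medians of 415 and 311.5 reads. The transfer RNA row ATCG00090 averaged 83.9 RPKM, rps14, for a ribosomal protein, 70.3 RPKM, and atpH, for the ring subunit of the ATP synthase, 56.0 RPKM. psbC averaged 55.8 RPKM, the transfer RNA row ATCG00100 54.0 RPKM, and psaJ, for a small photosystem I subunit, 40.7 RPKM. Together these 10 genes made up 50.7% of the chloroplast RPKM.

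Chloroplast genes contributed between 0.185% and 0.499% of the summed RPKM of a library, and the share went with the plant in WS. In WS, replicate 1 was highest and replicate 3 lowest at each of the 6 times. The shares of WS replicates 1, 2 and 3 were 0.453%, 0.382% and 0.185% at 240 min, against 0.499%, 0.373% and 0.215% at 0 min. In Col-0 they were 0.277%, 0.238% and 0.248% at 240 min, against 0.358%, 0.348% and 0.289% at 0 min, with all 3 libraries at 240 min below all 3 at 0 min. No plant of Col-0 was highest throughout. The WS group means were 0.3625%, 0.3801%, 0.3574%, 0.3542%, 0.4051% and 0.3403% at the 6 times in order. Those of Col-0 were 0.3321%, 0.3623%, 0.317%, 0.2837%, 0.3204% and 0.254%. In bulk leaf RNA, fewer chloroplasts or cells and less chloroplast RNA per cell cannot be told apart. 

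**Figure D1:**
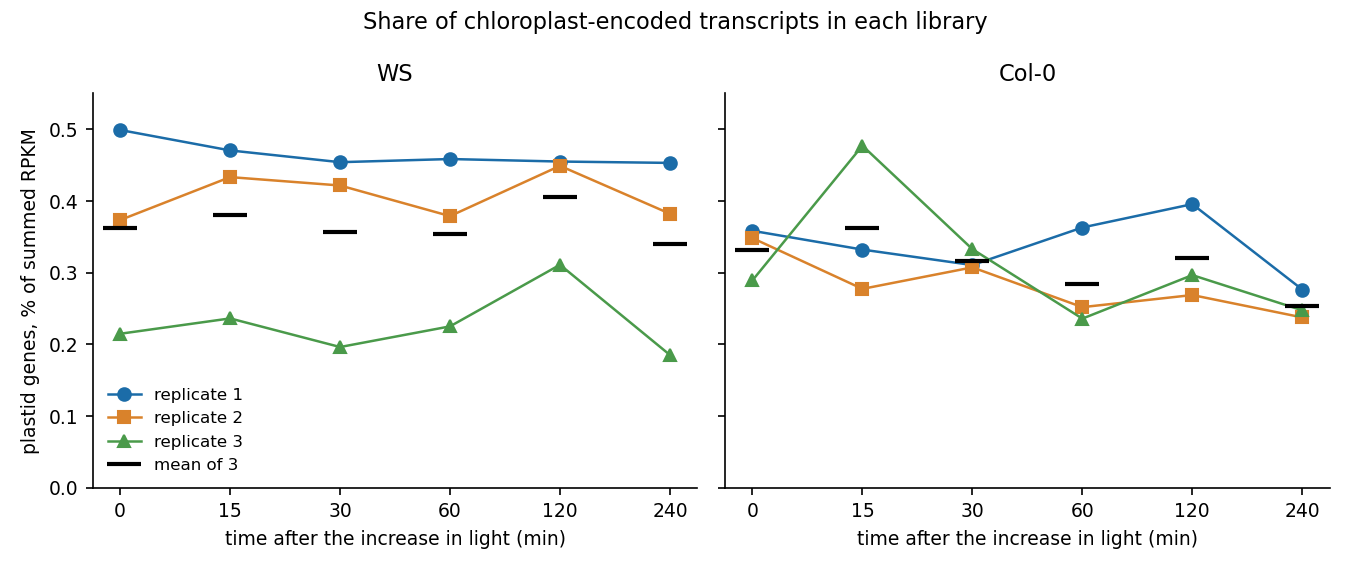
Summed RPKM of chloroplast-encoded genes as a percentage of the summed RPKM of all genes (y axis) by time after the increase in light (x axis, min), for WS (left) and Col-0 (right); symbols joined by lines are the 3 plants of each accession, black bars their mean. WS replicate 3 lies below the other 2 WS plants at all times, at 0.185% to 0.311%, and the Col-0 libraries at 240 min lie between 0.238% and 0.277%.

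The spread between libraries of a group was wider for chloroplast genes than for the rest. The median residual SD of the 72 genes was 0.558 on the log2(RPKM + 1) scale, against 0.33 over all 13817 genes tested and 0.297 over 6427 genes of like mean level. It was 0.613 for psbA, 0.628 for rbcL and 0.607 for psbD, but 0.29 for atpB. 1 library, WS 0 min replicate 1, was shallow, with 7.35 M reads in the genes against up to 41.7 M in other libraries, and it held the highest chloroplast share of all. For the WS genes that passed, the values without it are given beside the main ones.

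Up to 60 min no chloroplast gene passed the test (limma on log2(RPKM + 1) with Benjamini-Hochberg adjustment over all genes tested, adjusted p below 0.05). In WS 0 of 72 passed at 15, 30 and 60 min, where 2.72%, 8.74% and 26.8% of all genes tested passed. Likewise, 0 of 72 passed in Col-0 at these times, where 3.1%, 6.85% and 16.5% of all genes did. At an unadjusted p below 0.05 the counts were 0, 1 and 3 in WS and 0, 0 and 0 in Col-0, and limma voom on reads recovered from the RPKM called 0 in each. The median log2 difference of the chloroplast genes from 0 min lay between 0.03 and 0.09 in WS and between -0.22 and 0.11 in Col-0 over these times. With their wider spread, a change of a given size passes less readily for chloroplast genes than for most genes. These counts therefore do not show that no chloroplast transcript changed.

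At 120 min a small number of chloroplast transcripts were lower in WS and none passed in Col-0. In WS 3 of 72 passed, all lower (atpB, atpE and rpoB), where 40.5% of all genes tested passed and 17.3% were lower. By limma voom 1 of 72 passed in WS. In Col-0 0 of 72 passed (1 at an unadjusted p below 0.05, and 0 by limma voom), where 36% of all genes passed. The median over the 72 was 0.02 in WS, against 0.10 over all genes tested, and -0.03 in Col-0, against 0.06. WS 120 min replicate 3 was 1 of 4 libraries that earlier work had found shallow or nearer to another group. With 1 plant or library left out the WS count ran over 0 to 11, the highest without WS replicate 3.

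At 240 min nearly all chloroplast transcripts lay below their 0 min level in both accessions, but few passed in the main fit. In WS the size of the median fall depended heavily on WS 240 min replicate 3. In WS 5 of 72 passed, all lower (atpB, atpE, rpoB and the transfer RNA rows ATCG00090 and ATCG00200), where 24.6% of all genes passed and 10.1% were lower. In Col-0 2 of 72 passed, both lower (rpl33 and atpB), where 30.1% of all genes passed and 13.1% were lower. The difference was below 0 for 66 of 72 genes in WS (median -0.48) and for 71 of 72 in Col-0 (median -0.63), against medians of 0.04 over all genes in each accession. Scaled to the same sum per library (TPM), these medians were -0.24 in WS, where 52 of 72 genes lay below 0, and -0.47 in Col-0, where 68 did, against 0.29 and 0.22 over all genes. Without that scaling and with 1 plant or library left out, the WS median ran over -0.869 to -0.025. The value nearest 0 came without WS 240 min replicate 3. The Col-0 median then ran over -0.746 to -0.482. By limma voom 1 of 72 genes passed in each accession at 240 min.

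With the plant as a replicate block, which takes out differences between plants, more chloroplast genes passed. In WS at 120 min 9 of 72 passed, 5 higher and 4 lower, where 44.5% of all genes passed, 25.4% higher and 19.1% lower. In WS at 240 min 8 passed, all lower, where 28.1% of all genes passed and 11.8% were lower. In Col-0 at 240 min 14 passed, all lower, where 33.6% of all genes passed and 15% were lower. Over the 72 genes, deviations from group means were no more alike within a Col-0 plant than between plants (mean r -0.051 to -0.014, against 0.012 to 0.023). Both accessions share 1 estimate of spread in these fits. Fitted alone and without the block, Col-0 also gave more calls at 240 min than the main fit. WS fitted alone gave fewer at 120 and 240 min (counts in the closing section). What raised the Col-0 count with the block was not tested. With the block on TPM the Col-0 count at 240 min was 4 and the WS count 4. The block added no call at the other times. Without the shallow library WS 0 min replicate 1, and without the block, 0 of 72 passed in WS at 120 min and at 240 min. Without it and with the block, 1 passed in WS at 120 min (psbD, higher) and 2 at 240 min (atpB and atpE, lower).

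atpB was the chloroplast transcript lower in the most comparisons. In WS it had 21.84, 19.43 and 26.87 RPKM at 120 min and 24.74, 14.38 and 17.67 RPKM at 240 min in replicates 1, 2 and 3, against 51.78, 33.29 and 27.75 RPKM at 0 min. In Col-0 it had 16.32, 21.25 and 30.26 RPKM at 240 min, against 50.92, 38.92 and 37.78 RPKM at 0 min. All libraries at 240 min were below all at 0 min in each accession, and in WS those at 120 min were too. The log2 difference was -0.94 (SE 0.235, adjusted p = 0.0039) in WS at 240 min, -0.67 (adjusted p = 0.025) in WS at 120 min, and -0.91 (SE 0.235, adjusted p = 0.0042) in Col-0 at 240 min. With the plant as a block the adjusted p values were 0.00092, 0.0089 and 0.0011. Without the shallow WS library, the WS differences were -0.69 (adjusted p = 0.05) at 240 min and -0.42 (adjusted p = 0.19) at 120 min, and without Col-0 replicate 1 the Col-0 difference was -0.58 (adjusted p = 0.19).

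atpE, cotranscribed with atpB, lay close to it in level. In WS it had 25.77, 20.63 and 27.13 RPKM at 120 min and 24.73, 14.98 and 17.67 RPKM at 240 min, against 117.36, 35.58 and 33.48 RPKM at 0 min, where the first value is the shallow library. The log2 difference was -1.07 (adjusted p = 0.039) at 120 min and -1.43 (adjusted p = 0.011) at 240 min, and -0.49 and -0.85 (adjusted p = 0.14 at 240 min) without that library. In Col-0 it had 19.42, 26.43 and 41.52 RPKM at 240 min, against 65.13, 38.54 and 34.74 RPKM at 0 min, and the groups overlapped.

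The 4 genes of the other ATP synthase unit, atpI, atpH, atpF and atpA, lay below 0 min at 240 min in both accessions without passing the test, with a median log2 difference of -0.68 in WS and -0.71 in Col-0. atpA, for the α subunit, had 19.93, 11.08 and 7.08 RPKM in WS at 240 min, against 40.97, 25.28 and 9.51 RPKM at 0 min, each plant being lower. With the plant as a block atpA was lower in WS (log2 difference -0.83, adjusted p = 0.035) and atpH in Col-0 (-0.76, adjusted p = 0.032). Without the shallow library and without the block, atpA differed by -0.39 in WS (adjusted p = 0.63).

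rpoB (chloroplast:23111-26329, minus strand) was the only gene of the polymerase core with a matched row above the limit. It had 2.66, 2.8 and 6.57 RPKM at 120 min and 6.39, 2.8 and 2.75 RPKM at 240 min in WS, against 13.48, 8.03 and 4.94 RPKM at 0 min. Replicates 1 and 2 were lower at both times, replicate 3 was higher at 120 min and lower at 240 min, and the groups overlapped. The log2 difference was -0.96 at both times (adjusted p = 0.029 at 120 min and 0.044 at 240 min) and, without the shallow library, -0.63 at both (adjusted p = 0.19 for 120 min and 0.27 for 240 min). In Col-0 at 240 min rpoB had 5.51, 4.21 and 5.9 RPKM, against 9.3, 7.17 and 6.31 RPKM at 0 min, with no overlap of the groups and a log2 difference of -0.47 that did not pass.

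rpl33 (chloroplast:67488-67688, plus strand), for a protein of the large ribosomal subunit, had 5.33, 4.38 and 3.4 RPKM in Col-0 at 240 min, against 11.62, 11.24 and 12.48 RPKM at 0 min. The groups did not overlap. The log2 difference was -1.27 (SE 0.32, adjusted p = 0.0039, or 0.00077 with the block), and -1.09 (adjusted p = 0.069) without Col-0 replicate 3. In WS rpl33 had 11.58, 5.11 and 6.05 RPKM at 240 min, against 17.11, 12.84 and 5.06 RPKM at 0 min, and did not pass. It rests on a median of 49 reads per library.

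The transfer RNA rows were short. ATCG00090 is 88 bases long, with a median of 173 reads per library, and had 70.29, 65.14 and 58.03 RPKM in WS at 240 min, against 303.65, 95.15 and 74.71 RPKM at 0 min (log2 difference -0.998, adjusted p = 0.043). Its highest value was the shallow library, without which the difference was -0.39 (adjusted p = 0.45). ATCG00200, of 71 bases, had 3.92, 2.1 and 0.43 RPKM in WS at 240 min, against 11.18, 6.21 and 5.47 RPKM at 0 min (log2 difference -1.57, adjusted p = 0.027), from a median of 7.5 reads per library. Without the shallow library it differed by -1.29 (adjusted p = 0.13).

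**Figure D2:**
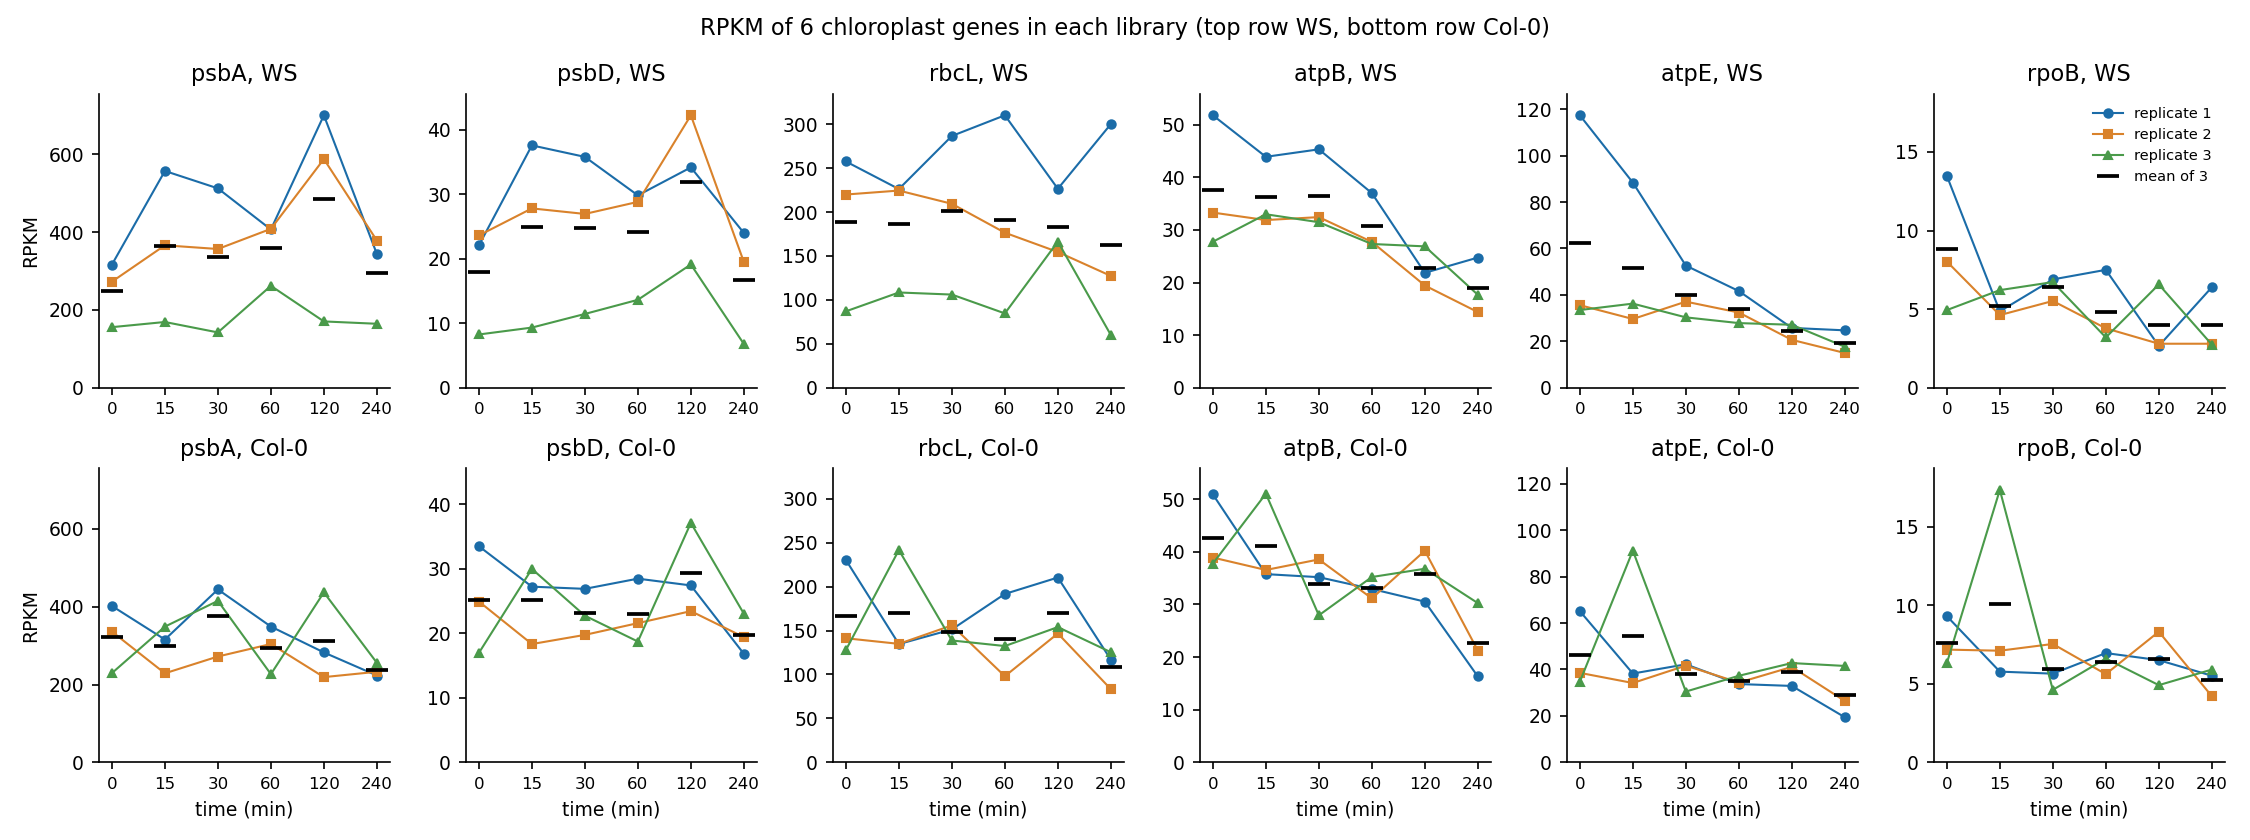
RPKM of psbA, psbD, rbcL, atpB, atpE and rpoB (y axes, linear from 0) by time after the increase in light (x axes, min) in WS (top) and Col-0 (bottom); symbols joined by lines are the 3 plants, black bars their mean. WS atpB and atpE end at 14.38 to 24.74 RPKM at 240 min, WS psbA reaches 700.1 RPKM at 120 min in replicate 1, and WS replicate 3 has the lowest psbA and rbcL at most times.

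Genes of photosystem II reaction centre proteins lay above 0 min in WS at 120 min, and passed with the plant as a block but not in the fit without it. psbA had 700.1, 587.66 and 170.42 RPKM in WS replicates 1, 2 and 3 at 120 min, against 316.38, 272.55 and 155.7 RPKM at 0 min. All 3 plants were higher, replicates 1 and 2 by much more than replicate 3, whose 120 min value lay within the 0 min range. The log2 difference was 0.79 and did not pass (adjusted p = 0.19), but did with the plant as a block (adjusted p = 0.018). With 1 library left out and no block it ran over 0.41 (adjusted p = 0.58, without WS 120 min replicate 1) to 1.43 (adjusted p = 0.014, without WS 120 min replicate 3), and was 0.998 (adjusted p = 0.16) without the shallow library. With the block but without the shallow library it was 0.71 and did not pass (adjusted p = 0.072). In Col-0 psbA had 282.41, 218.99 and 436.73 RPKM at 120 min, against 401.78, 335.96 and 229.25 RPKM at 0 min, where 2 plants were lower and 1 higher.

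psbD had 34.13, 42.2 and 19.1 RPKM in WS at 120 min, against 22.05, 23.59 and 8.25 RPKM at 0 min. Each plant was higher, and the groups overlapped only through replicate 3. The log2 difference was 0.85 (adjusted p = 0.15, or 0.0034 with the block). Without the block it was 1.05 (adjusted p = 0.13) without the shallow library and 0.39 (adjusted p = 0.57) without WS 0 min replicate 3. With the block it passed without each WS 0 min library in turn (adjusted p = 0.019, 0.007 and 0.014 without replicates 1, 2 and 3). At 240 min WS psbD had 23.98, 19.48 and 6.78 RPKM and overlapped its 0 min values. In Col-0 it had 27.4, 23.42 and 37.09 RPKM at 120 min, against 33.47, 24.91 and 16.95 RPKM at 0 min, in no common direction.

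The unit that encodes psbB, psbT, psbH, petB and petD, which joins photosystem II to cytochrome b6f, lay above 0 min in WS at 120 min in all 5 genes (median log2 difference 0.54). None passed in the fit without the block, in which psbT differed by 0.70 (adjusted p = 0.13), petB by 0.56 (adjusted p = 0.31) and petD by 0.54 (adjusted p = 0.19). With the block these 3 were higher (adjusted p = 0.037, 0.035 and 0.022 in that order). Without WS 0 min replicate 3 and without the block the differences were 0.46, 0.135 and 0.27. With the block but without the shallow library they were 0.645, 0.56 and 0.39, and none passed (adjusted p = 0.11, 0.083 and 0.14). petB, for cytochrome b6, had 42.87, 43.56 and 23.65 RPKM in WS at 120 min, against 34.3, 30.12 and 12.59 RPKM at 0 min, and each plant was higher. petD, for subunit IV, had 51.64, 54.92 and 40.1 RPKM, against 34.78, 46.14 and 22.52 RPKM. In Col-0 the same unit had a median of 0.14 at 120 min and -0.48 at 240 min. petD was then lower in Col-0 with the block (-0.65, adjusted p = 0.0085), at 22.55, 25.73 and 24.92 RPKM against 47.4, 35.23 and 35.21 RPKM at 0 min, which did not overlap.

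rbcL did not pass in any comparison. It had 226.44, 154.5 and 166.3 RPKM in WS at 120 min and 300.03, 127.27 and 60.03 RPKM at 240 min, against 257.49, 219.89 and 86.96 RPKM at 0 min. Replicate 1 was higher and replicates 2 and 3 lower at 240 min. In Col-0 it had 116.85, 83.3 and 125.31 RPKM at 240 min, against 230.3, 141.21 and 127.78 RPKM at 0 min, each plant being lower (log2 difference -0.59).

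psaA and psaB, for the reaction centre proteins of photosystem I, likewise did not pass. psaA had 31.82, 13.58 and 4.43 RPKM in WS at 240 min, against 35.82, 23.82 and 7.04 RPKM at 0 min, lower in each plant. In Col-0 psaA had 13.11, 10.13 and 17.96 RPKM at 240 min, against 30.15, 16.52 and 11.65 RPKM at 0 min, lower in 2 plants of 3. psaA, psaB and rps14, which share a unit, had median log2 differences of 0.11 in WS and 0.19 in Col-0 at 120 min, and of -0.47 in WS and -0.42 in Col-0 at 240 min.

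The remaining classes were described by their medians. In Col-0 at 240 min the NADH dehydrogenase-like complex had a median of -0.68 with 7 of 7 genes below 0, and the large ribosomal subunit -0.79 with 6 of 6 below 0. With the block ndhC, ndhE and ndhA, of that NADH complex, were lower there (log2 differences -0.68, -1.13 and -0.83). So were psaC, for the iron-sulfur protein of photosystem I (-0.86), ycf4, for a photosystem I assembly factor (-0.96), and cemA, for an envelope membrane protein (-0.71). psbL, psbH and psbJ of photosystem II (-0.73, -0.72 and -0.60) and petG of cytochrome b6f (-1.22) completed the 14. With the block on TPM, 4 genes passed there. In WS at 240 min ndhJ (-0.66) and rpl32 (-1.06) were lower with the block beside the genes named above. Without the shallow library and without the block they differed by -0.315 (adjusted p = 0.66) and -0.49 (adjusted p = 0.47). clpP, for a protease subunit, had 16.29, 8.69 and 7.82 RPKM in WS at 240 min, against 33.13, 16.3 and 7.28 RPKM at 0 min, and did not pass.

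**Figure D3:**
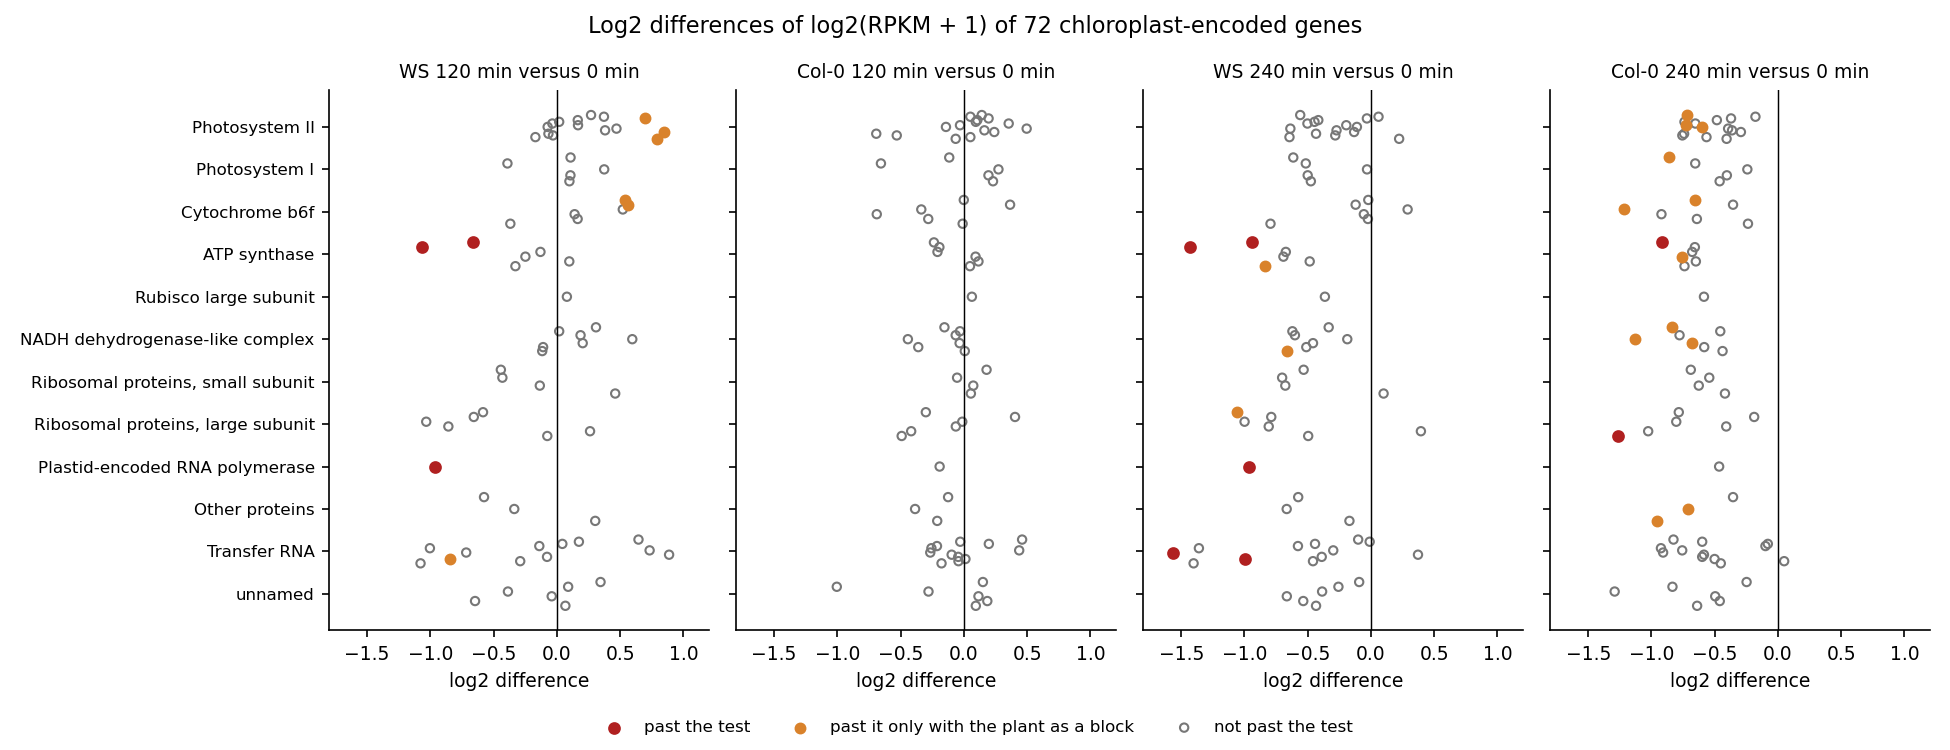
Differences in log2(RPKM + 1) from 0 min (x axes) of the 72 tested chloroplast genes by class (rows) in WS and Col-0 at 120 and 240 min; each circle is a gene, red where it passed the test, orange where it passed only with the plant as a replicate block, open where it did not. At 240 min 66 genes in WS and 71 in Col-0 lie left of 0, whereas in WS at 120 min the orange genes of photosystem II and cytochrome b6f lie right of 0 and the red ATP synthase genes left.

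Ratios between 2 chloroplast transcripts of a library do not depend on its scaling or on a factor common to all its chloroplast genes. They can still go with the chloroplast share. The denominator used below, atpB, was itself lower in WS at 120 min and in both accessions at 240 min. A fall of atpB alone raises a ratio over it. WS replicate 3, lowest in share, also had the lowest psbA over atpB of the WS plants at 0, 120 and 240 min. psbA over atpB was 32.06, 30.25 and 6.34 in WS at 120 min, against 6.11, 8.19 and 5.61 at 0 min. It was 13.90, 26.31 and 9.30 in WS at 240 min, above all 0 min values. WS replicates 1 and 2 moved far more than replicate 3 at 120 min. In Col-0 the ratio was 9.25, 5.45 and 11.87 at 120 min and 13.67, 10.95 and 8.45 at 240 min, against 7.89, 8.63 and 6.07 at 0 min. Each Col-0 plant was higher at 240 min than at 0 min, and the groups overlapped.

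psbD over atpB was 1.56, 2.17 and 0.71 in WS at 120 min, against 0.43, 0.71 and 0.30 at 0 min, a rise in each plant. In Col-0 it was 1.03, 0.91 and 0.76 at 240 min, against 0.66, 0.64 and 0.45 at 0 min, with no overlap. There psbD itself had a log2 difference of -0.29 and atpB of -0.91, so both were lower and atpB more so. petB over atpB was 1.96, 2.24 and 0.88 in WS at 120 min, against 0.66, 0.91 and 0.45 at 0 min, and 0.87, 0.79 and 0.70 in Col-0 at 240 min, against 0.56, 0.58 and 0.45 at 0 min. For neighbours within a unit, atpE over atpB was 1.00, 1.04 and 1.00 in WS at 240 min, against 2.27, 1.07 and 1.21 at 0 min, and psbC over psbD in Col-0 was 2.183, 2.280 and 2.121 at 240 min, against 2.126, 2.297 and 2.478 at 0 min. Each gene was also taken relative to the median of the tested chloroplast genes of its library. The median difference from 0 min of photosystem II genes was then 0.11 in WS at 120 min and 0.03 in Col-0 at 240 min. For cytochrome b6f it was 0.29 and -0.05, and for the ATP synthase -0.35 and -0.11.

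**Figure D4:**
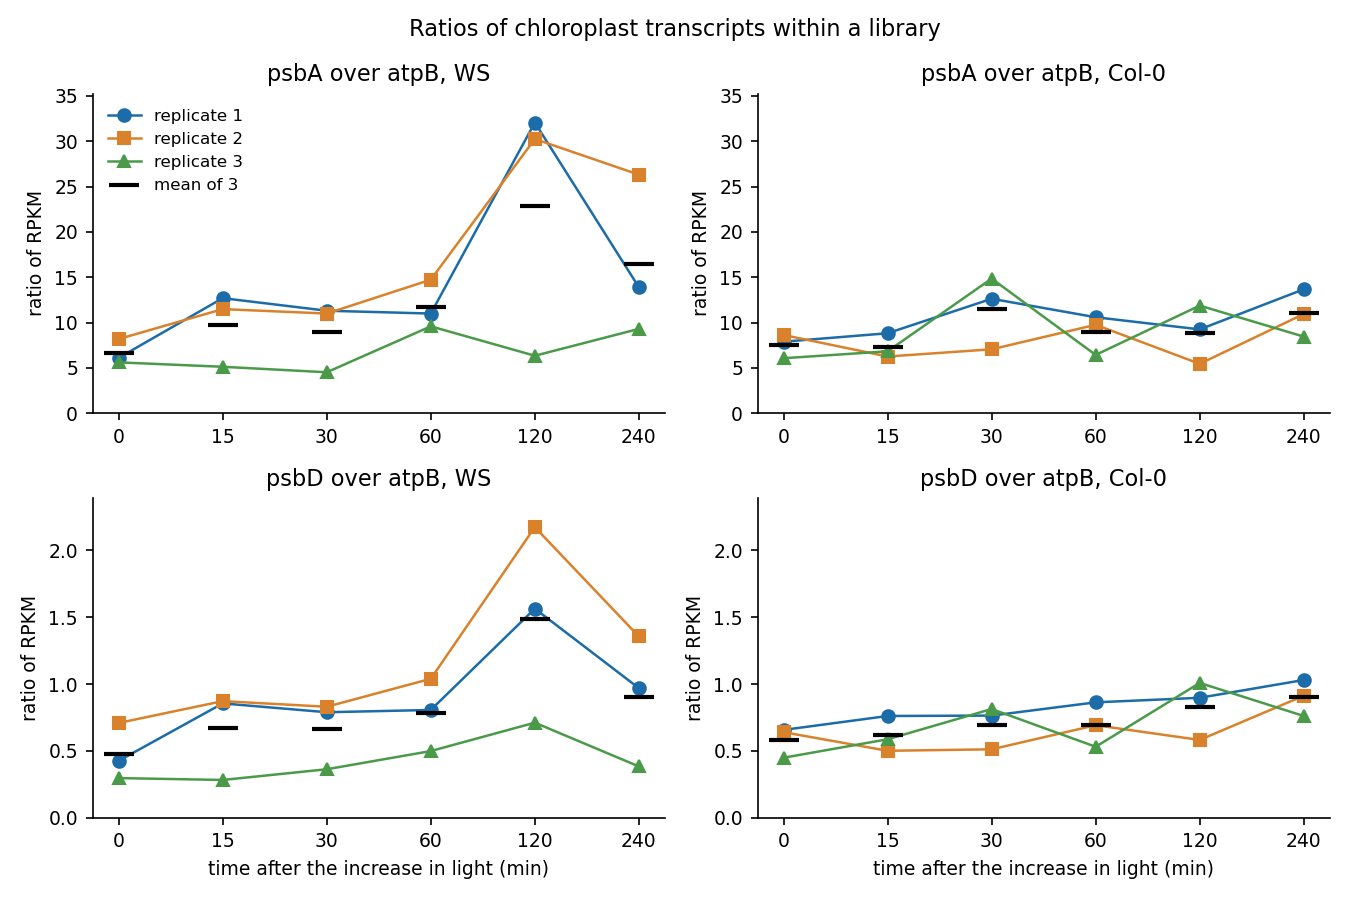
Ratio of psbA to atpB (top) and of psbD to atpB (bottom) within each library (y axes, ratio of RPKM) by time (x axes, min) in WS (left) and Col-0 (right); symbols joined by lines are the 3 plants, black bars their mean. WS replicates 1 and 2 reach 32.06 and 30.25 for psbA over atpB at 120 min while replicate 3 is at 6.34.

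The accessions were not separated by any chloroplast gene. At 0 min 0 of 72 genes differed between WS and Col-0, where 6.59% of all genes tested did. 2 genes, both transfer RNA rows, had an unadjusted p below 0.05, the smallest adjusted p being 0.11 for ATCG00090. The change from 0 min in WS minus that in Col-0 passed for 0 of 72 genes at each time after 0 min, where, in order of time, 0.0145%, 0.00724%, 0.232%, 0.13% and 0.0941% of all genes passed. At 240 min 2 chloroplast genes had an unadjusted p below 0.05 in this test, rpl36 and petG, and none had at the other times. For psbA at 120 min the WS change exceeded that in Col-0 by 0.86 (SE 0.68, adjusted p = 0.89), and for atpB the difference of changes was -0.43 (SE 0.33, adjusted p = 0.89). So genes that passed in one accession only were not shown to differ between the accessions.

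The nuclear genes for partner subunits of the same complexes are set here beside the chloroplast genes. In WS at 120 min 12 of 12 nuclear photosystem I genes were lower (median log2 difference -1.49), against a median of 0.11 over 5 chloroplast genes, none passing. Of all genes tested 17.3% were lower there. 9 of 9 nuclear photosystem II genes were lower (median -1.26), against 0.17 over 15 chloroplast genes, and 4 of 4 Rubisco small-subunit genes (median -1.42), against 0.08 for rbcL. PSAD2, for the ferredoxin-docking subunit of photosystem I, differed by -3.34 (adjusted p = 2.1e-05), RBCS2B by -1.81 (adjusted p = 0.001) and PSBO1, of the oxygen-evolving complex, by -1.26 (adjusted p = 0.0015). In Col-0 at 120 min 2 of 12, 1 of 9 and 1 of 4 of these nuclear genes passed, with medians of -0.54, -0.62 and -0.66. Of all genes tested 36% passed there.

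At 240 min the nuclear photosystem II genes had a median of -1.25 in WS and -0.85 in Col-0, and the chloroplast ones -0.28 in WS and -0.565 in Col-0. For photosystem I the nuclear medians were -1.34 in WS and -0.78 in Col-0, and the chloroplast medians -0.50 in WS and -0.46 in Col-0. The Rubisco small-subunit genes had medians of -1.35 in WS and -0.66 in Col-0, against -0.36 and -0.59 for rbcL. For the ATP synthase at 240 min the 6 chloroplast genes had a median of -0.76 in WS and -0.71 in Col-0, and the 3 nuclear genes -0.49 and -0.47, none of these nuclear genes passing. Here the nuclear median was the nearer to 0, whereas in WS at 120 min the chloroplast median was, at -0.29 against -0.60, with 2 of 3 nuclear genes lower, ATPD, for the δ subunit, by -1.41 (adjusted p = 0.003). No test of one genome's genes against the other's was made.

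**Figure D5:**
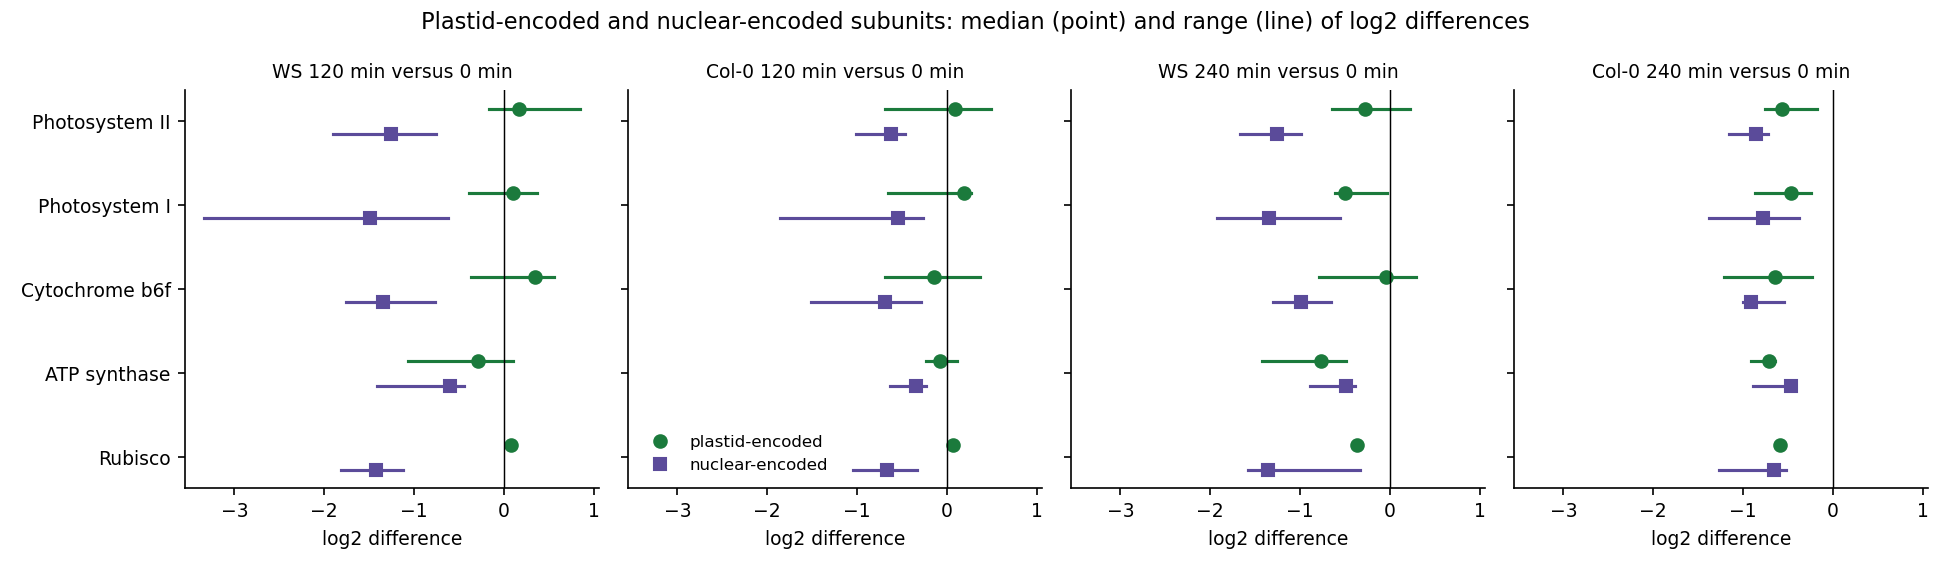
Median (point) and range (line) of log2 differences from 0 min (x axes) of plastid-encoded (green circles) and nuclear-encoded (purple squares) subunits of 5 complexes (rows) in WS and Col-0 at 120 and 240 min. In WS at 120 min the nuclear medians lie between -1.49 and -0.60, and the plastid medians between -0.29 and 0.34.

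Nuclear genes that run chloroplast transcription also differed. Of 6 sigma factors 5 were lower at 120 min in WS, all but SIG5, and 5 in Col-0, all but SIG2. Of all genes 17.3% were lower then in WS and 15.7% in Col-0. SIG1 had 44.96, 34.55 and 50.23 RPKM in WS at 120 min, against 174.33, 147.94 and 150.21 RPKM at 0 min, and 54.01, 56.62 and 44.63 RPKM in Col-0, against 161.93, 175.45 and 121.61 RPKM (log2 differences -1.85, adjusted p = 9.1e-08, and -1.54, adjusted p = 2.9e-06). SIG5, the sigma factor known to act on the psbD light-responsive promoter, had 56.65, 43.79 and 9.63 RPKM in WS at 120 min, against 47.69, 52.09 and 69.15 RPKM at 0 min, and replicate 3 stood apart. At 240 min SIG5 was lower in WS (-2.42, adjusted p = 0.0018) and in Col-0 (-2.80, adjusted p = 0.00041). Only SIG1 and SIG5 were lower at 240 min, where 10.1% of all genes were lower in WS and 13.1% in Col-0.

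The phage-type polymerase of plastids, RPOTp, did not pass at 120 min. It had 23.51, 24.11 and 25.58 RPKM in WS at 240 min, against 11.33, 13.42 and 13.16 RPKM at 0 min (0.90, adjusted p = 0.078), and 23.33, 34.16 and 33.21 RPKM in Col-0, against 11.57, 17.15 and 11.55 RPKM (1.12, adjusted p = 0.023). RPOTmp, which serves both organelles, was higher at 120 min in WS (2.71, adjusted p = 6.8e-09) and in Col-0 (1.73, adjusted p = 9e-06). Of 12 proteins associated with PEP, 2 were higher at 240 min in each accession, where 14.5% of all genes in WS and 17% in Col-0 were higher, and at 120 min 1 was lower in WS. Of 6 genes for turnover of plastid RNA 5 were lower in WS at 120 min and 2 in Col-0, where 17.3% and 15.7% of all genes were lower. Of 152 rows of the mitochondrial genome 6 were above 7 RPKM, with median log2 differences at 120 min of 0.27 in WS and 0.34 in Col-0.

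Markers of mesophyll, the tissue that holds most leaf chloroplasts, moved as well. All 3 were lower in WS at 120 and 240 min, where 17.3% and 10.1% of all genes were lower, and none in Col-0. Their summed level was 5700 to 20276 RPKM in WS at 120 min and 5364 to 16247 RPKM at 240 min, against 19906 to 29497 RPKM at 0 min. They are RBCS1A, LHCB1.1 and CA1, which are nuclear genes of photosynthesis and carbon fixation. At 240 min 2 of 4 phloem markers were higher in WS, their sum being 161.5 to 226.5 RPKM against 65.9 to 148.6 RPKM at 0 min, and 1 of 2 tested epidermis markers was lower in Col-0. Of 5 guard cell and myrosin cell markers 1 was higher and 1 lower in WS at 240 min. At that time 14.5% of all genes were higher and 10.1% lower in WS, and 13.1% were lower in Col-0. The root marker, too low to be tested, was 0.0 RPKM in Col-0 at 0 min and 2.2 to 4.3 RPKM at 240 min. In WS it was at most 0.1 RPKM at 0 min, 2.9 RPKM at 120 min and 1.2 RPKM at 240 min. The part of tissue composition in the chloroplast values was not tested.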

How the data were processed

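Strand-specific poly(A) libraries of 50-base single reads were made from single leaves of WS and Col-0. The authors used Trimmomatic 0.32 for trimming, FastQC for quality, STAR 2.3.0e for alignment (build TAIR10) and featureCounts for counting. The RPKM they deposited stand in 1 table of 36 libraries, all columns of which were used (0 sample columns were left out). GEO's time field heads the times as hours and differs from the titles for the samples titled 30 min. The titles and the methods were followed.

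From the RPKM steps of low genes, exon lengths and whole reads were recovered. 99.93% of the values tested were whole within 0.1 read, and libraries held 7.35 to 41.7 M reads in matched genes and 14316 to 62432 in chloroplast genes. Lengths recovered for 99 chloroplast rows were matched to RefSeq. Precision is given by the replicate spread, since depth covers counting error only. For 7 of the 72 tested genes the median was under 20 reads.

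Genes above 7 RPKM in at least 1 library (13817) were tested with limma 3.58.1 (R 4.3.3) on log2(RPKM + 1), with 12 group means, eBayes with trend, 24 residual degrees of freedom and Benjamini-Hochberg adjustment over all of them. All differences are on the log2(RPKM + 1) scale, which understates changes of low genes. Tables and figures were made with Python 3.11.15, pandas 2.3.3, numpy 2.4.6 and matplotlib 3.10.9. The script was tested on simulated data.

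The study's methods give 3 plants per accession and 1 leaf per plant at each time. That a replicate number is the same plant at every time was inferred from this and is not stated. Deviations from group means of libraries of 1 plant correlated at a mean r of -0.00, 0.08 and 0.20 in Col-0 replicates 1, 2 and 3 and 0.17, 0.19 and 0.17 in WS replicates 1, 2 and 3, against -0.10 to -0.01 with other plants. The fit without the plant is the main one, and the fit with it as a replicate block is given where it changed a call.

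Alternatives were a pseudocount of 0.1, other filters, other scalings (median of ratios, TPM, the same sum over nuclear genes), each accession alone, eBayes without trend, voom on recovered reads, leaving out each plant or library, and leaving out 4 libraries that earlier work had found shallow or nearer to another group (WS 0 min replicate 1, WS 120 min replicate 3, and Col-0 60 min and 120 min replicate 1). The genes named are the 10 of highest mean RPKM, up to 5 of smallest adjusted p past 0.05 in each direction and comparison, a list of core photosynthesis and transcription genes, the sigma factors and RPOTp, and up to 3 genes of each other nuclear list. Genes named for passing only with the block (petD, psbL, psbH, petG, psaC, ycf4, cemA, atpA, rpl32 and the ndh genes), rpl36, RPOTmp and the transcription units in which genes are grouped were named after values were seen or from general knowledge. The genes described and all lists were chosen with earlier results of these data known.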

Additional observations from a re-analysis of the deposited data

Results flagged for a closer look

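The change of psbA at 60 min from 0 min had opposite signs in the 2 accessions in every plant. The mean log2 difference was 0.56 over the 3 WS plants, all higher, and -0.12 over the 3 Col-0 plants, all lower, a gap of 0.684. By limma the change in WS minus that in Col-0 did not pass (adjusted p = 0.90). This pattern of signs was found by searching a set of named genes at every time after 0 min. Such a search can turn up patterns of this kind by chance, and how many to expect was not worked out.

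The change of petD at 60 min, found by the same search, showed the same pattern. It averaged 0.40 over the 3 WS plants, all higher, and -0.26 over the 3 Col-0 plants, all lower, a gap of 0.666. The limma difference of changes had an SE of 0.46 and did not pass (adjusted p = 0.84).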

How the results depend on the processing

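Over the 16 counts of genes that passed, 185 of 214 values under other settings stayed within 1.5 times the main count, and 165 of 192 with 1 plant or library left out did. With the plant as a replicate block the counts were 14 (Col-0 240 min), 9 (WS 120 min) and 8 (WS 240 min), and the block changed no other count. Other choices, made after seeing the data, gave 4 (Col-0 240 min) and 9 (WS 120 min) with the block and TPM, and 1, 3 and 18 (Col-0 60, 120 and 240 min), 6 (WS 120 min) and 2 (WS 240 min) with the block without 4 libraries. With the block and without WS 0 min replicate 1, 2 or 3 in turn, also chosen after seeing the data, they were 1, 7 and 10 (WS 120 min), 2, 8 and 14 (WS 240 min) and 0, 1 and 2 (WS 60 min). Without the 4 libraries and without the block, the counts were 3 (Col-0 120 min) and 1 (WS 240 min). voom gave 1 for each of Col-0 240 min, WS 120 min and WS 240 min. Each accession alone gave 12 (Col-0 240 min), 1 (WS 120 min) and 3 (WS 240 min), TPM and the same nuclear sum gave 3 (WS 240 min), and no filter gave 1 (WS 120 min). Leaving out 1 plant or library gave 1 to 5 (Col-0 240 min), 0 to 2 (Col-0 120 min), 0 to 11 (WS 120 min), 0 to 15 (WS 240 min), 0 to 2 (WS 60 min), 0 to 1 (WS 30 min) and 0 to 2 (WS against Col-0 at 0 min). Without WS 0 min replicate 1 both WS 120 min and WS 240 min had 0. The cause was not tested.

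The median over the 72 genes moved to -0.466 (Col-0 240 min) and -0.113 (Col-0 30 min) under TPM, with or without the block, to -0.467 and -0.113 under the same nuclear sum, and to -0.486 and -0.118 under voom. For WS 120 min it was 0.170 under voom, 0.357 without the 4 libraries and -0.259 without them with the block. Over left-out plants or libraries it ran over -0.163 to 0.090 (Col-0 30 min), -0.746 to -0.482 (Col-0 240 min), -0.378 to 0.245 (WS 120 min) and -0.869 to -0.025 (WS 240 min).

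As a share of recovered reads in place of RPKM, chloroplast genes made up 0.1367%, 0.1467%, 0.1372%, 0.1297%, 0.1577% and 0.1319% in WS at the 6 times in order, and 0.1294%, 0.1376%, 0.1219%, 0.1070%, 0.1271% and 0.1026% in Col-0.

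Among genes that did not pass, WS 240 min differences changed sign. petB, psbD, psbJ and psbT were 0.142, 0.124, 0.159 and 0.239 under TPM (petB 0.141 under the same nuclear sum), 0.290, 0.235, 0.297 and 0.244 under voom, and 0.139, 0.071, 0.152 and 0.004 without the 4 libraries, where psaB was 0.019 and psbC 0.110. With the block, rps14 was -0.171 without the 4 libraries and -0.137 without WS 0 min replicate 1, and psbT was 0.006 without WS 0 min replicate 2. Over left-out plants or libraries in WS 240 min, psbA ran over -0.081 to 0.599, rbcL -0.953 to 0.198, psbJ -0.500 to 0.363, psbT -0.273 to 0.214, rps14 -0.385 to 0.698, psbC -0.736 to 0.185, psbD -0.587 to 0.381, psaA -1.137 to 0.170, psaB -1.097 to 0.058 and petB -0.549 to 0.339. In Col-0 240 min psbD ran over -0.649 to 0.037 and psaB -0.972 to 0.057.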
